A study of Mus musculus with 2 samples.

Results

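Among the stromal cells of mouse epididymal fat, 321 fibroblasts carried at least 3 of the 5 transcripts Fmo2, Gdf10, Clec11a, F3 and Chrdl1. They were 10.5% of the 3053 fibroblast cells (95% exact binomial interval 9.45 to 11.7) and 3.05% of the 10521 cells kept (2.73 to 3.40). A cell counted as a fibroblast when at least 3 of Pdgfra, Lum, Dpt, Clec3b and Mfap5 were on and when C1qa, C1qb, Cdh5 and Upk3b together stayed under 500 CPM (reads of a gene scaled to a fixed total per cell). A gene was on in a cell at 100 CPM or more, and cells with over 25% mitochondrial reads were left out. The 321 cells are called members here, and the remaining 2732 fibroblast cells are called other fibroblasts. The members were chosen by read values of these same cells, so every difference given below is a description without a test.

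The 5 genes have been reported in a stromal population of mouse fat known from its surface protein CD142, the product of F3. Here F3 was on in 244 members and in 642 other fibroblasts, so the members are not the same as the F3-positive fibroblasts. Fibroblasts of white fat include Dpp4 and Pi16 progenitors, preadipocytes committed to the adipocyte lineage, and CD142-positive cells that have been described as holding back adipocyte formation in their neighbours. Fmo2 encodes a flavin-containing monooxygenase, which oxidises nitrogen and sulphur compounds. Gdf10, also called BMP3b, is a secreted ligand of the bone morphogenetic protein (BMP) family. Chrdl1 is a secreted antagonist that binds BMPs. Clec11a, or osteolectin, is a secreted growth factor known from skeletal stroma. F3, tissue factor, is the cell-surface starter of blood coagulation.

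The cells came from the stromal vascular fraction, which is what enzymatic digestion of fat leaves besides adipocytes, of male wild-type C57BL/6J mice. The mice had eaten a high-fat diet for 8 weeks, a high-fat diet for 16 weeks, or a standard diet for 16 weeks. Suspensions were marked with hashtag antibodies at 2.5 µg/ml, pooled, and 20000 cells were loaded for TAS-Seq, a whole-transcriptome method on BD Rhapsody beads. The transcriptome and hashtag libraries describe 1 pooled sample with no replicate. The labels do not say which hashtag marks which diet or how many mice stand behind it, so the diets cannot be set against each other here. The 9 hashtag populations are unassigned samples and are given as single values or as lowest, median and highest.

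The members had a median of 61968 reads and 3863 genes per cell, and other fibroblasts 45501.5 reads and 3199 genes. Median mitochondrial shares were 2.96% in members and 3.90% in other fibroblasts. The doublet caller Scrublet marked 0 members and 62 other fibroblasts (2.27%), against 233 of all kept cells (2.21%). Members were thus deeper than other fibroblasts, and the part of depth in their choice was looked at by thinning. With every cell thinned to 10000 reads, which left out 2 members and 170 other fibroblasts, the rule took 339 of 2956 fibroblast cells (11.5%), and 279 of them were members at full depth.

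Each of the 5 markers was carried by a different share of the members. Fmo2 (GRCm38 chromosome 1, 162874317 to 162898726, minus strand) was on in 91.6% of members and 19.0% of other fibroblasts. Gdf10 (chromosome 14, 33923587 to 33937983, plus strand) was on in 88.5% of members and 22.8% of other fibroblasts. F3 (chromosome 3, 121723537 to 121735048, plus strand) was on in 76.0% of members and 23.5% of other fibroblasts. Clec11a (chromosome 7, 44302687 to 44306902, minus strand) was on in 49.8% of members and 5.93% of other fibroblasts. Chrdl1 (chromosome X, 143285674 to 143394262, minus strand) was on in 29.3% of members and 1.76% of other fibroblasts. Most members therefore carried Fmo2 and Gdf10, whereas Clec11a was off in 161 of the 321.

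Free RNA can leave reads of a gene in cells that do not express it, so the shares were set beside those in cells marked by the complement genes C1qa and C1qb, which macrophages express. In 2930 such cells, with a median of 65940 reads, Fmo2 was on in 1.13%, F3 in 1.02%, Gdf10 in 0.273%, Chrdl1 in 0.205% and Clec11a in 0 cells (upper limit of the exact interval 0.126%). The shares in other fibroblasts lay above these values for all 5 markers, and those in members were fixed by the rule. The lowest recorded values of Fmo2 and Chrdl1 are 7 and 6 reads. Cells with fewer reads of these genes could not count as on at any depth, which limits their shares in all groups.

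Summed over all reads, which is the level used from here on, Fmo2 stood at 1034 CPM in members and 131 CPM in other fibroblasts. Over the 9 hashtag populations, Fmo2 in members ran from 596 CPM through a median of 921 to 1547 CPM, and in other fibroblasts from 60.4 through 108 to 227 CPM. Gdf10 stood at 541 CPM in members and 105 CPM in other fibroblasts. Clec11a reached 186 CPM in members, against 24.0 CPM in other fibroblasts. F3 was at 416 CPM in members and 118 CPM in other fibroblasts. Chrdl1 was at 268 CPM in members and 9.51 CPM in other fibroblasts. These differences follow from the choice of the cells and carry no further weight. The first 437 genes of the deposited table list no low values, and Fmo2 and Chrdl1 are among them, with lowest recorded values of 7 and 6 reads. With each missing value of a gene set to 1 read less than its lowest recorded value, called gaps filled here, the ratio of members to other fibroblasts was 4.72-fold instead of 7.90-fold for Fmo2, and 3.19-fold instead of 28.1-fold for Chrdl1.

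The markers came on together in more cells than their separate shares would give. They were chosen with earlier results of these data known, so this is a description and no separate support for a population. Among all fibroblast cells, Fmo2 was on in 14.3% of cells with 0 of the other 4 markers on, in 30.0% with 1, 48.0% with 2, 73.9% with 3 and 84.6% with all 4. Chrdl1, the rarest, was on in 1.71% of cells with 0 of the others and in 44.0% of the 50 cells with all 4 others. F3 showed the flattest course of the 5 between those ends, with 22% and 56.4%. Of the 10 pairs, Clec11a with Chrdl1 exceeded the number expected from their separate shares the most, 4.34-fold with 65 cells, and Fmo2 with F3 the least, 1.30-fold. Median reads also went up with the number of markers on, with 36667 reads at 0 markers, 48890.5 at 1, 57687.5 at 2, 60276 at 3, 61968 at 4 and 67535.5 at 5, and the part of depth in this pattern was not tested.

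**Figure D1:**
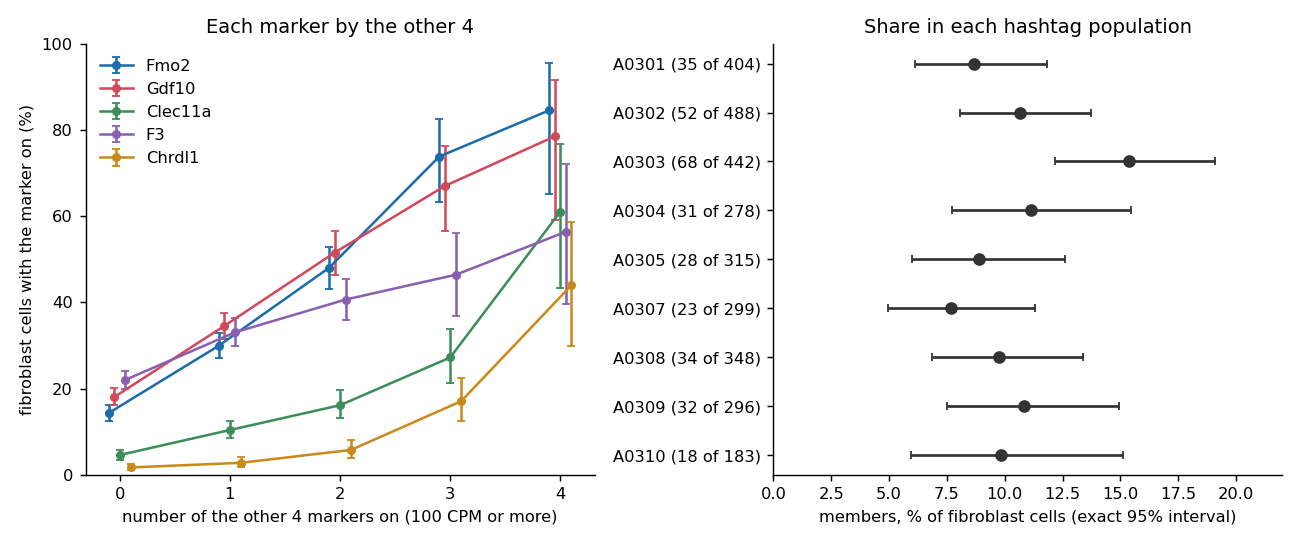
Left, the share of the 3053 fibroblast cells with a marker on (y axis, percent) by how many of the other 4 markers were on (x axis), with exact 95% intervals as bars; right, members as a percent of fibroblast cells in each hashtag population, with exact 95% intervals. All 5 lines climb from left to right, Chrdl1 from 1.71% to 44.0%, and on the right A0303 stands highest at 15.4%.

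The numbers of fibroblast cells with 0 to 5 markers on were 1268, 932, 532, 230, 69 and 22, so there was no gap at the limit of 3. The most common combination in members was Fmo2 with Gdf10 and F3, in 127 cells (39.6%), followed by Fmo2 with Gdf10 and Clec11a in 38 cells (11.8%). The 230 cells just inside the limit, with 3 markers on, and the 532 cells just outside it, with 2 on, lay in a continuous order. Fmo2 was at 837 CPM in the cells with 3 on and 367 CPM in those with 2 on, Mgp at 4561 and 2847 CPM, and Dpp4 at 45.2 and 116 CPM. Another 64 cells had 3 or more markers on but failed the fibroblast part of the rule. Of those 64, 53 carried at least 3 mesothelial genes, which mark the lining of the fat pad, and 60 held 500 CPM or more of the excluding genes.

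Members were found in every hashtag population. Their share of the fibroblast cells was 8.66% in A0301 (35 of 404), 10.7% in A0302 (52 of 488), 15.4% in A0303 (68 of 442), 11.2% in A0304 (31 of 278) and 8.89% in A0305 with 28 members. It was 7.69% in A0307 (23 of 299), 9.77% in A0308 (34 of 348), 10.8% in A0309 (32 of 296) and 9.84% in A0310 (18 of 183). The exact interval of A0303, 12.1 to 19.1%, lay above the point value of each of the other populations, and it overlapped the intervals of A0302, A0304, A0305, A0308, A0309 and A0310. These intervals hold counting error over cells alone and no spread between mice, so they do not rank the populations. The fibroblast share of all cells varied more, from 15% in A0310 through a median of 25.3% to 50.6% in A0302. Hashtag counts were low, with a median of 57 in members, 46 in other fibroblasts and 1782 in the C1q cells, and the highest tag was the authors' call in 85.7% of members and 83.7% of other fibroblasts. Only 126 members (39.3%) and 34.1% of other fibroblasts had at least 10 hashtag counts and at least 2 in 3 of them from the called tag. The split of fibroblasts by hashtag therefore rests on fewer counts than that of the C1q cells, and so does every spread over hashtag populations given here.

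Fibroblast genes that the rule did not use were abundant in members. The matrix proteoglycan decorin, Dcn, stood at 21266 CPM in members and 15600 CPM in other fibroblasts, the actin regulator gelsolin, Gsn, at 26127 and 19781 CPM, and the collagen chain Col1a1 at 3207 and 2063 CPM. Of 12 such genes, 9 were within 2-fold. The surface protein Thy1 and fibrillin Fbn1 were lower in members, and the microfibril protein Mfap4 was higher.

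Over all genes outside the rule, 6909 reached 20 CPM in members or other fibroblasts. Of these, 116 (1.68%) were at least 2-fold higher in members and 120 (1.74%) at least 2-fold lower. The difference had the same sign in all 9 hashtag populations for 65 of the higher and 74 of the lower genes. The share of all 6909 genes with 1 sign in all 9 is not given here. Genes within 2-fold can show it too, such as Igfbp7, which was higher in members in 9 of 9. With gaps filled, 104 of the higher and 92 of the lower genes were still 2-fold apart. The named genes are the 25 higher and 15 lower ones with the largest ratio among those with at least 50 CPM on the higher side, a 2-fold difference also with gaps filled, and the same sign in each of the 8 hashtag populations that hold 20 or more members, with mitochondrial and predicted genes left out. Values of 1 library have no replicate spread, and what follows gives the spread over hashtag populations instead.

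**Figure D2:**
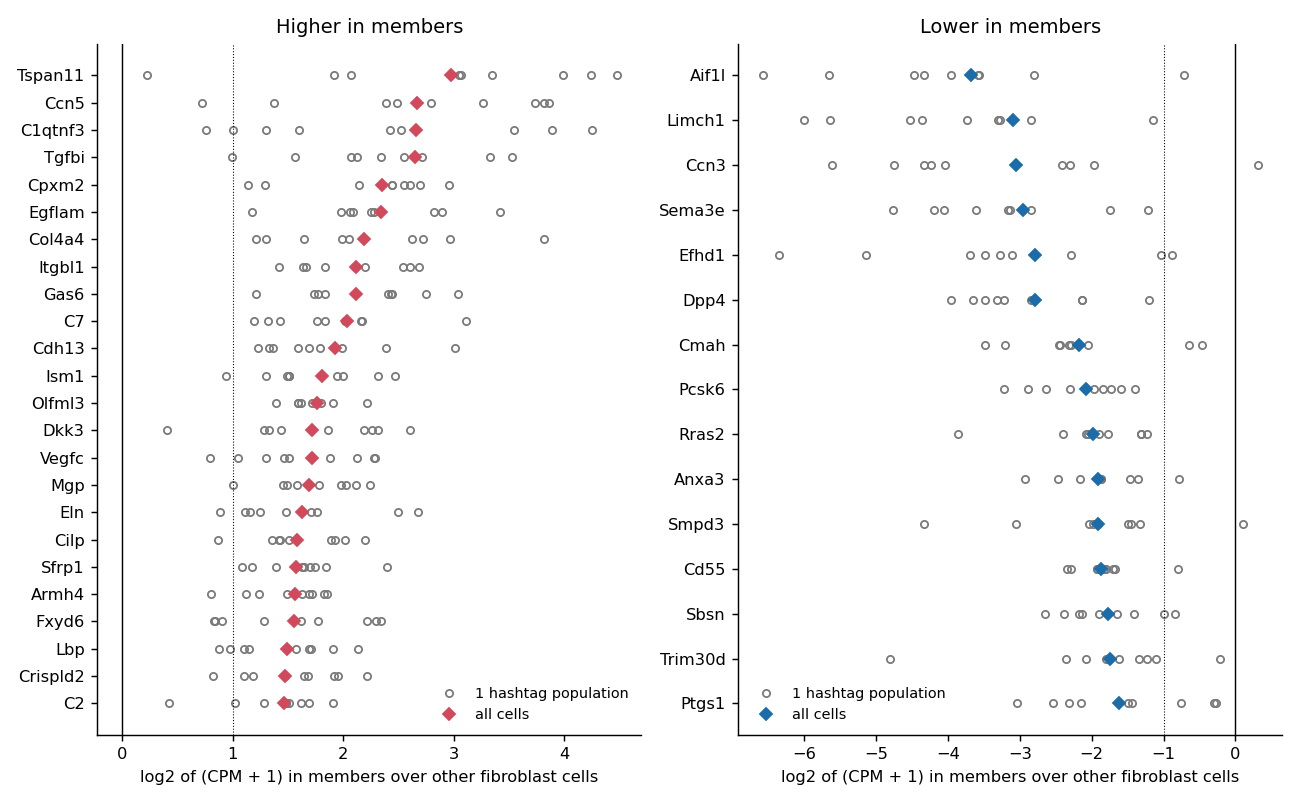
Log2 ratio of CPM plus 1 in members over other fibroblasts (x axis) for 24 of the 25 named higher genes (left) and the 15 named lower genes (right), with filled diamonds for all cells, open circles for each of the 9 hashtag populations, and dotted lines at 2-fold. All circles of the plotted higher genes lie above 0, and of the lower genes Ccn3 and Smpd3 each have 1 circle on the other side.

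Matrix Gla protein, Mgp, which inhibits calcification and binds BMPs, stood at 5592 CPM in members (2884, 5892 and 9942 as lowest, median and highest hashtag population) and 1733 CPM in other fibroblasts (941, 1361 and 3632). Elastin, Eln, was at 901 CPM in members (515, 785 and 1641) and 291 CPM in other fibroblasts (200, 256 and 515), so that the lowest population of members stood level with the highest of other fibroblasts, and 14.7% of its member reads came from 1 cell. Cilp, a matrix protein first known from cartilage, was at 1515 CPM in members (971, 1513 and 2109) and 506 CPM in other fibroblasts (360, 538 and 642). For Cilp the populations of members and of other fibroblasts did not overlap, whereas those of Mgp did.

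Tgfbi, an adhesion protein of the matrix that TGF-beta induces, stood at 325 CPM in members (71.1, 315.2 and 508) and 50.9 CPM in other fibroblasts (29.6, 47.0 and 80.8), with overlap at the low end of the members. The matricellular protein Ccn5 was at 202 CPM in members (108, 167 and 349) and 31.0 CPM in other fibroblasts (16.5, 27.5 and 65.1), without overlap between populations, and its ratio of 6.53-fold came to 2.17-fold with gaps filled. Itgbl1, a secreted relative of beta integrins, was at 368 CPM in members and 84.2 CPM in other fibroblasts. Col4a4, a collagen IV chain of specialised basement membranes, was at 68.5 CPM in members and 14.3 CPM in other fibroblasts, and its partner chain Col4a3 at 29.4 and 5.83 CPM. Egflam, which encodes the dystroglycan ligand pikachurin, was at 55.2 CPM in members and 10.1 CPM in other fibroblasts. The carboxypeptidase-like Cpxm2 was at 173 CPM in members and 33.0 CPM in other fibroblasts.

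Of the named genes, the largest ratio belonged to Tspan11, a membrane protein of the tetraspanin family, with 59.0 CPM in members (13.7, 68.2 and 93.9) and 6.62 CPM in other fibroblasts (1.92, 3.36 and 18.8). It was read in 26.8% of members and 3.59% of other fibroblasts, so most members held no read of it. C1qtnf3, a secreted protein of the C1q and TNF family, followed with 88.4 CPM in members and 13.1 CPM in other fibroblasts, and 22% of its member reads came from 1 cell. T-cadherin, Cdh13, which binds adiponectin, stood at 107 CPM in members and 27.4 CPM in other fibroblasts. Olfml3, Crispld2, Armh4, Fxyd6 and Ism1 were also among the named genes, as was lipopolysaccharide-binding protein, Lbp, at 608 CPM in members and 216 CPM in other fibroblasts. Each of these was higher in members in 9 of 9 hashtag populations. The choice of named genes had required that direction in 8 of them, so this is no separate support.

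Complement genes lay on both sides. C7, part of the membrane attack complex, stood at 775 CPM in members (185, 934 and 1146) and 189 CPM in other fibroblasts (73.4, 207 and 318), with overlap. C2, a component of the classical pathway, was at 173 CPM in members and 62.0 CPM in other fibroblasts, and its span holds the overlapping gene Gm20547 on the same strand, so reads of both may be mixed. The decay-accelerating factor Cd55, which removes complement from cell surfaces, was lower. C3, the central component, was within 2-fold at 6101 CPM in members and 5147 CPM in other fibroblasts.

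Structural matrix genes differed gene by gene rather than as families. Of the listed genes, none of 6 fibrillar collagens, 7 other collagens or 13 matrix proteases was 2-fold apart. Outside the lists, and picked after their values were seen, the collagen Col28a1 was higher at 55.1 CPM in members and 6.44 CPM in other fibroblasts, in 7 of 9 hashtag populations. The proteases Adamts16 (0.991 CPM in members, 41.2 CPM in other fibroblasts) and Adamts14 (9.91 and 28.5 CPM) were lower, each in 9 of 9. Of 15 listed basement membrane genes, Col4a3 and Col4a4 were 2-fold higher and the other 13 within 2-fold, and the unlisted chain Col4a6, picked in the same way, was higher too, at 40.3 CPM in members and 15.4 CPM in other fibroblasts. Of 13 elastic fibre genes, Eln, fibulin Fbln1 (529 CPM in members, 197 CPM in other fibroblasts) and Mfap4 (240 and 102 CPM) were higher. Mfap4 was 2-fold apart only without the filling of gaps. Fibrillin Fbn1 was lower, at 1278 CPM in members (892, 1228 and 2022) and 3346 CPM in other fibroblasts (1915, 3037 and 4899), overlapping at 1 end, as was Emilin2 at 148 and 328 CPM. Elastin and the fibrillin that scaffolds it thus lay on opposite sides, and Fbn1 was lower in members in 9 of 9 hashtag populations. Of 9 small leucine-rich proteoglycans, Podn was higher at 290 CPM in members and 119 CPM in other fibroblasts. Fibromodulin, Fmod, was at 118 CPM in members and 18.7 CPM in other fibroblasts, but within 2-fold with gaps filled.

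BMP signalling genes outside the rule were described by role. Of 6 measured ligands, Bmp4 was higher, at 34.1 CPM in members (4.21, 33.0 and 77.9) and 10.9 CPM in other fibroblasts (5.19, 10.9 and 15), and these ranges overlap. Bmp6 was lower, at 8.83 CPM in members and 48.5 CPM in other fibroblasts, and Bmp7 likewise at 2.55 and 29.3 CPM. Of 9 antagonists and binding proteins, 4 passed 2-fold and all 4 were higher in members. They were Smoc2 (1395 CPM in members, 549 CPM in other fibroblasts), the glypican Gpc3 (598 and 259 CPM), the activin-binding Fstl3 (60.4 and 26.9 CPM) and Grem1. The Grem1 value of 41.7 CPM in members, against 1.45 CPM in other fibroblasts, came from 1 cell for 99.2% of its reads, and Grem1 was higher in members in only 2 of 9 hashtag populations. The other 5 antagonists and binding proteins were within 2-fold. The whole antagonist list summed to 5337 CPM in members and 5643 CPM in other fibroblasts, so it was not higher as a sum. None of 12 receptors, SMADs and target genes was 2-fold apart. The BMP target Id1 stood at 45.3 CPM in members and 29.1 CPM in other fibroblasts, and Id3 at 890 and 761 CPM.

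Other secreted signals differed in both directions. Gas6, the ligand of the receptors Axl and Mertk, stood at 516 CPM in members (262, 540 and 756) and 119 CPM in other fibroblasts (64.7, 88.3 and 245), without overlap. Igf1 was at 867 CPM in members (409, 731 and 1611) and 366 CPM in other fibroblasts (198, 283 and 613), higher in members in 8 of 9 populations. Vegfc, a growth factor of lymphatic vessels, was at 70.5 CPM in members and 20.7 CPM in other fibroblasts. The Wnt antagonist Sfrp1 was at 769 CPM in members (451, 794 and 1114) and 257 CPM in other fibroblasts (138, 225 and 449), and Dkk3 at 70.4 and 20.7 CPM, whereas Wnt11 was lower at 13.8 and 29.8 CPM. The guidance ligand Sema3c was also lower, at 137 CPM in members and 423 CPM in other fibroblasts, as was the cytokine Il34 at 9.53 and 22.6 CPM. In the TGF-beta list, Tgfbi alone of 12 genes was 2-fold apart, and the receptor Tgfbr2 was at 383 CPM in members and 590 CPM in other fibroblasts.

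Most other genes of the pathways of Fmo2 and F3 were within 2-fold. Of 14 flavin and xenobiotic enzymes, Fmo1, a second flavin monooxygenase, was at 286 CPM in members and 122 CPM in other fibroblasts, and the methyltransferase Inmt at 837 and 413 CPM. Inmt was within 2-fold with gaps filled. The summed reads of Gsta3 were 2-fold higher, with the same direction in 4 of the 9 hashtag populations. Gstm1 had 0 reads in members and 73.0 CPM in other fibroblasts from 0.146% of those cells, so its difference rests on few cells, and Gsta and Gstm genes have near copies among which reads can be split. Of 15 coagulation genes besides F3, Gas6, a vitamin K-dependent protein like several clotting factors, was the only one 2-fold apart. In the retinoid list, the carrier Rbp4 was higher at 50.3 CPM in members and 7.38 CPM in other fibroblasts, and the retinol dehydrogenase Rdh10 lower at 21 and 55.1 CPM. Alkaline phosphatase, Alpl, an enzyme of mineralising tissue, was at 66.2 CPM in members (5.79, 61.4 and 112) and 9.19 CPM in other fibroblasts (0.494, 9.52 and 14.7), higher in members in 8 of 9 populations.

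Of 12 genes that have been reported beside the 5 markers, 8 reached 20 CPM in members or other fibroblasts. Of these 8, 5 were 2-fold higher in members and none was lower. They were Mgp, cytoglobin Cygb (1168 CPM in members, 470 CPM in other fibroblasts), the homeobox gene Meox2 (43.6 and 10.2 CPM), the prohormone protease Cpe (119 and 21.2 CPM) and Igfbp3 (33.8 and 12.0 CPM). The median log2 ratio of the 8 genes was 1.36, and that of all 6909 genes was -0.04. Of all 6909 genes, 1.68% were 2-fold higher in members and 1.74% were 2-fold lower. Meox2 and Igfbp3 reached 20 CPM only in members, so the filter let them in through the group where they are high. Cpe came within 2-fold with gaps filled, and Igfbp3 was higher in 3 of 9 hashtag populations, with 35.9% of its member reads in 1 cell. This list was drawn up with earlier results of these data known and is no independent evidence of its direction.

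Genes of the Dpp4 and Pi16 progenitors stood among the lower ones. Of 11 measured progenitor genes, 9 were 2-fold lower in members and none was higher, with a median log2 ratio of -1.92. The peptidase gene Dpp4 stood at 35.0 CPM in members (13.1, 27.5 and 117) and 248 CPM in other fibroblasts (121, 271 and 308.5), lower in members in 9 of 9 hashtag populations and without overlap. Cd55, whose near copy Cd55b can share its reads, was at 323 CPM in members (181, 314.1 and 465) and 1188 CPM in other fibroblasts (646, 1235 and 1600), without overlap. The actin-binding Limch1 was at 9.20 CPM in members (0, 4.03 and 48.9) and 85.8 CPM in other fibroblasts (47.9, 87.6 and 125), and 46.7% of its member reads came from 1 cell. Pi16 itself, a secreted peptidase inhibitor, was within 2-fold at 511 CPM in members and 818 CPM in other fibroblasts.

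Other named lower genes had similar sizes of difference. Aif1l, an actin-bundling protein, had the largest ratio, with 4.72 CPM in members (0, 3.32 and 25.5) and 72.4 CPM in other fibroblasts (39.5, 50.5 and 138), and no population of members reached any of the others. The matricellular Ccn3 was at 18.6 CPM in members and 162 CPM in other fibroblasts, and the guidance ligand Sema3e at 5.71 and 51.0 CPM. The proprotein convertase Pcsk6 was at 68.9 CPM in members and 295 CPM in other fibroblasts. The named lower genes were lower in members in 9 of 9 hashtag populations, except Ccn3 and Smpd3, at 8 of 9. The choice of named genes had required that direction in 8 populations. The sphingomyelinase Smpd3, which overlaps the gene Prmt7, the sialic acid enzyme Cmah, the small GTPase Rras2, the annexin Anxa3, Efhd1, Sbsn, Trim30d and the cyclooxygenase Ptgs1 were also among the named genes.

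Of 13 measured inflammatory genes, 5 were lower in members and 1 was higher. The summed macrophage genes were lower too, at 347 CPM in members and 768 CPM in other fibroblasts, and their part in these differences was not tested. The monocyte attractant Ccl2 stood at 129 CPM in members (36.5, 97.9 and 312.2) and 646 CPM in other fibroblasts (187, 577 and 1219), lower in members in 8 of 9 populations, with overlapping ranges. Tnfaip6, a hyaluronan-binding protein of inflamed tissue, was at 485 CPM in members and 981 CPM in other fibroblasts, and Cxcl2, which stood at 2246 CPM in C1q cells, at 47.8 and 99.8 CPM. Tnfaip6, Ptx3 and Saa3 came within 2-fold with gaps filled, and Saa3 was read in 0.312% of members, a single cell, and in 0.549% of other fibroblasts. The alarmin Il33 was higher, at 126 CPM in members and 61.6 CPM in other fibroblasts, with 19.3% of its member reads in 1 cell. None of 16 immediate early and heat shock genes, which enzymatic digestion can switch on, was 2-fold apart, and their summed level was 22789 CPM in members and 20479 CPM in other fibroblasts.

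Of 12 measured genes of committed preadipocytes, 11 were within 2-fold, among them lipoprotein lipase, Lpl, at 1311 CPM in members and 1299 CPM in other fibroblasts, and the fatty acid carrier Fabp4 at 135 and 223 CPM. Cd36 was lower at 21.7 CPM in members and 153 CPM in other fibroblasts, and within 2-fold with gaps filled. Pparg, the master regulator of adipocytes, was low in both, at 5.05 CPM in members and 8.15 CPM in other fibroblasts. Of 8 interferon genes, Ifit1 and Cxcl10 were lower in members and none was higher, and Cxcl10 was within 2-fold with gaps filled.

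**Figure D3:**
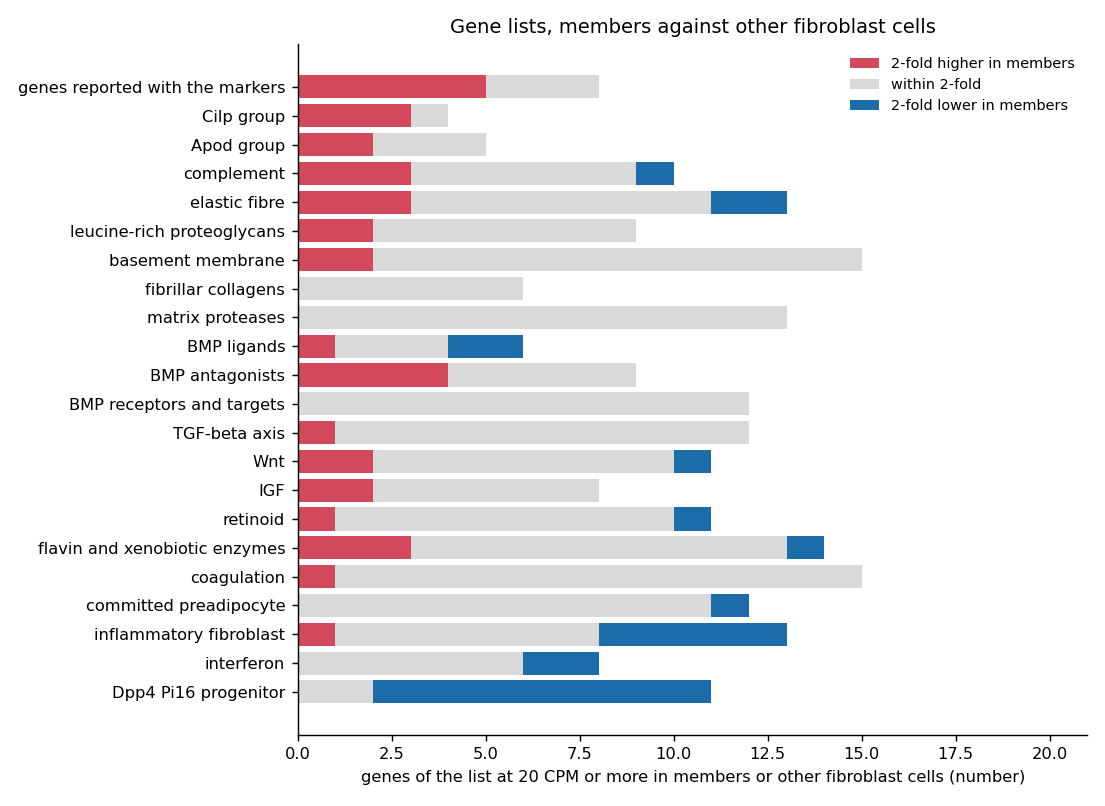
Number of genes (x axis) in each of 22 gene lists that reached 20 CPM in members or other fibroblasts, split into 2-fold higher in members, within 2-fold and 2-fold lower in members. The progenitor list has the most lower genes, 9 of 11, and the genes reported beside the markers have 5 of 8 higher.

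Members held a smaller share of cells with progenitor genes than other fibroblasts did. A progenitor set was formed from fibroblast cells with at least 3 of Dpp4, Pi16, Cd55, Sema3c and Anxa3 on, and it held 26.8% of members (22 to 32.0) and 45.1% of other fibroblasts (43.3 to 47.0). The share ran from 11.4% through 29.0% to 35.7% of members over the hashtag populations, and from 25.4% through 49.5% to 55.9% of other fibroblasts. An Apod set, with at least 3 of Apod, Abca8a, Hsd11b1, Ccl11 and Cxcl14 on, held 47.0% of members (41.5 to 52.7) and 28.9% of other fibroblasts (27.2 to 30.7). A0308 was the exception to this order, with 32.4% of its members and 30.6% of its other fibroblasts in the progenitor set. Members were 6.52% of the progenitor set and 16.0% of the Apod set. Of the 321 members, 29 were in both sets and 113 in neither.

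Fewer of the named lower than of the named higher genes stayed 2-fold apart once the progenitor set was left out of both groups. With 235 members and 1499 other fibroblasts left, 73 genes were 2-fold higher and 70 lower, of which 57 and 33 were also called with all cells. Of the 25 named higher genes, 17 stayed 2-fold higher, and all 25 kept their direction. Tgfbi was then at 275 CPM in members and 78.5 CPM in other fibroblasts, Cilp at 1344 and 470 CPM, Eln at 848 and 316 CPM, and C7 at 831 and 320 CPM. Of the 15 named lower genes, Aif1l, Limch1 and Sema3e stayed 2-fold lower, each under 20 CPM on both sides. Aif1l was then at 2.11 CPM in members and 12.0 CPM in other fibroblasts (lower in 7 of 9 hashtag populations), Limch1 at 2.52 and 7.52 CPM (9 of 9) and Sema3e at 3.13 and 7.51 CPM (5 of 9). Dpp4, Cd55 and Anxa3 define the progenitor set, so that the loss of their differences is fixed by its removal. Efhd1, which does not define it, was at 7.63 CPM in members and 8.83 CPM in other fibroblasts.

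Set directly against the 1233 progenitor set cells that were no members, whose median depth was 62513 reads, members had 268 of 6964 genes (3.85%) 2-fold higher and 215 (3.09%) lower. Against the 790 Apod set cells that were no members, at a median of 54006 reads, 98 of 6897 genes (1.42%) were higher and 64 (0.928%) lower. The genes that define each set were left out of its counts. Cygb stood at 1168 CPM in members, 250 CPM in the progenitor set and 712 CPM in the Apod set. Gas6 was at 516 CPM in members, 54.8 CPM in the progenitor set and 139 CPM in the Apod set, and Tgfbi at 325, 30.2 and 44.3 CPM. For Cilp and Eln these sets were alike and members stood apart, with 1515 CPM of Cilp in members, 534 CPM in the progenitor set and 450 CPM in the Apod set. Fibroblasts chosen by Cilp or Eln were not set beside the members, so high levels of these genes are not shown to be particular to members. Inmt and Fmo1 were closer to the Apod set, with 837 CPM of Inmt in members, 135 CPM in the progenitor set and 616 CPM in the Apod set. The 3 groups share 1 library, and no replicate exists to test these differences.

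Levels of several genes outside the rule moved step by step with the number of markers on. Cilp stood at 330 CPM in cells with 0 markers on, 529 with 1, 799 with 2, 1220 with 3, 1809 with 4 and 3298 CPM with 5. Tgfbi was at 37.4, 51.7, 74.7, 228, 522 and 646 CPM in the same order, with its largest ratio between neighbours from 2 to 3 markers. Fbn1 ran the other way, at 4366, 2980, 2021, 1341, 1126 and 1132 CPM. Dpp4 was at 337, 226, 116, 45.2, 9.77 and 14.7 CPM. Pi16 did not follow Dpp4, with 1101, 732, 424, 427, 546 and 1156 CPM, and the summed progenitor list was lowest at 3 markers, with 2190 CPM, and at 2892 CPM with 5. Col1a1 also went up, from 1775 CPM at 0 markers to 5654 CPM at 5, and the summed macrophage genes went down, from 1110 CPM to 342 CPM. The last group holds 22 cells, so single cells weigh on it, as for Limch1, which stood at 4.13 CPM with 4 markers on and 62.3 CPM with 5.

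**Figure D4:**
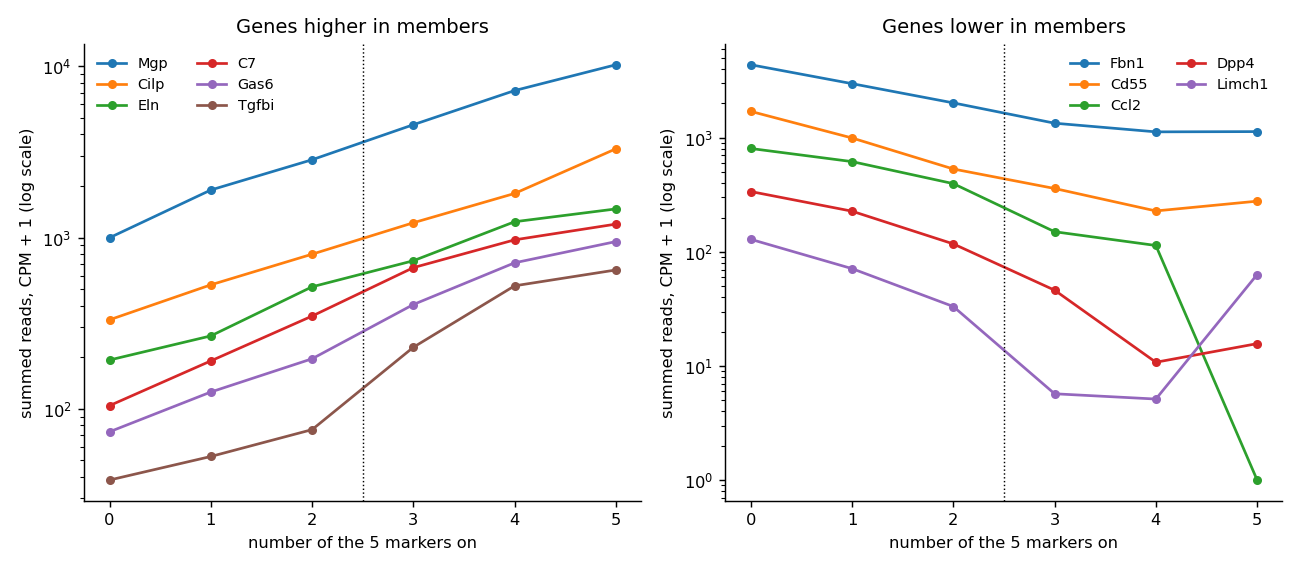
Summed level as CPM plus 1 (y axis, log scale) by the number of the 5 markers on (x axis) for 6 genes higher in members (left) and 5 lower in members (right), with the limit of 3 markers as a dotted line. Cilp climbs from 330 to 3298 CPM, and Dpp4 drops from 337 CPM at 0 markers to 9.77 CPM at 4.

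The members were not uniform, and those with Chrdl1 on differed from those with Chrdl1 off in Tgfbi and Ccn5 most of all genes plotted. In the 94 members with Chrdl1 on, Tgfbi stood at 798 CPM, against 125 CPM in the 227 with Chrdl1 off, and Ccn5 at 490 against 80.3 CPM. Both were higher with Chrdl1 on, Ccn5 in 9 and Tgfbi in 8 of 9 hashtag populations. Gas6 was at 828 CPM with Chrdl1 on and 383 CPM with Chrdl1 off, and Clec11a at 297 and 139 CPM. Apod, a lipocalin, went the other way at 510 CPM with Chrdl1 on and 859 CPM with Chrdl1 off, but in the same direction in only 5 of 9 populations. Tgfbi and Ccn5 also differed by the number of markers on. In the 91 members with 4 or 5 on, Tgfbi was at 555 CPM, against 228 CPM in the 230 with 3 on. Ccn5 was at 479 against 85.2 CPM. Neither this split nor the one by Clec11a held the number of markers equal, and its part was not tested.

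Clec11a split the members along similar genes. With Clec11a on, in 160 members, Tgfbi was at 487 CPM, against 153 CPM in the 161 with Clec11a off, and Mgp at 7307 against 3761 CPM. For Mgp the direction held in 9 of 9 populations. Chrdl1 was at 390 CPM with Clec11a on and 138 CPM with Clec11a off. Dpp4 was lower with Clec11a on, at 20.7 CPM against 50.3 CPM, whereas Pi16 was higher, at 640 CPM against 374 CPM, in 6 of 9 populations. Pi16 was likewise at 738 CPM with Chrdl1 on and 415 CPM with Chrdl1 off, in 8 of 9 populations.

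The split by F3 ran along other genes. In the 244 members with F3 on, Alpl stood at 80.2 CPM, against 19.7 CPM in the 77 with F3 off, in 9 of 9 populations. Apod was at 844 CPM with F3 on and 461 CPM with F3 off, also in 9 of 9 populations. Tgfbi was at 235 CPM with F3 on and 623 CPM with F3 off, in 4 of 9 populations higher with F3 on, and C7 at 628 and 1261 CPM. A member with F3 off must have 3 of the other 4 markers on, so the levels of Chrdl1 and Clec11a in these splits are in part set by the rule, and genes that go with them share that limit.

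**Figure D5:**
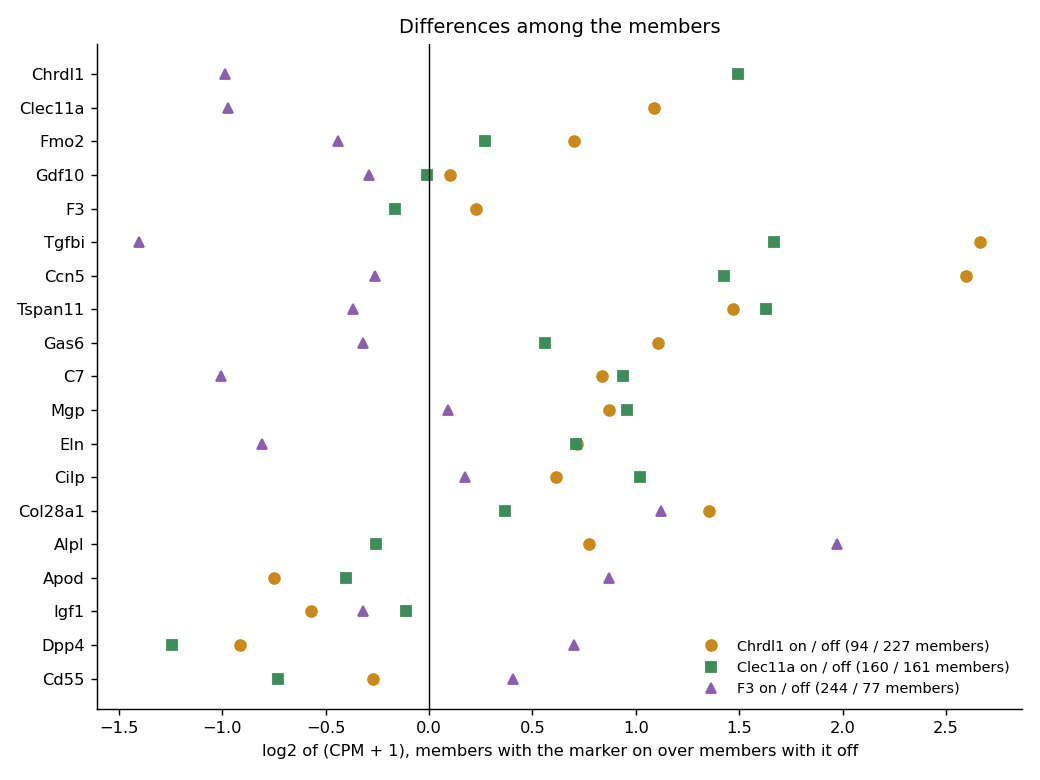
Log2 ratio of CPM plus 1 (x axis) between members with a marker on and members with it off, for 19 genes (y axis), with circles for Chrdl1, squares for Clec11a and triangles for F3. Tgfbi lies at 2.67 for Chrdl1, 1.67 for Clec11a and -1.40 for F3, and Alpl at 1.97 for F3.

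Members inside the progenitor set differ from the other members in progenitor genes by construction. Like all members, they carry markers because the rule chose them by these genes, so this is no separate observation. Fmo2, a gene of the rule, stood at 1220 CPM in the 86 members of the progenitor set and 951 CPM in the other 235. Mgp, which is outside the rule, was at 5498 and 5633 CPM in the same order. Fbn1 was at 1928 CPM in the members of the progenitor set and 990 CPM in the other members, in 9 of 9 hashtag populations. Apod was at 381 CPM in the members of the progenitor set and 921 CPM in the other members. Myocilin, Myoc, was at 316 CPM in the members of the progenitor set and 31.1 CPM in the other members. It was higher in the members of the progenitor set in only 4 of 9 hashtag populations, and 25.3% of its reads in all members came from 1 cell. Among all members Myoc averaged to 119 CPM, against 12.1 CPM in other fibroblasts, but it was read in only 6.23% of members, ran from 0 to 444 CPM over the hashtag populations, was higher in members in 5 of 9, and was within 2-fold with gaps filled.

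Among the 10 genes most like the marker count across the 3053 fibroblast cells were Cygb (Spearman's rho 0.43), Steap4 (0.37), Igfbp7 (0.37), Crispld2 (0.37), Gas1 (0.36), Gas6 (0.36), Olfml3 (0.35), C7 (0.35) and Cp (0.34). These correlations run over cells of 1 library, and reads per cell had a rho of 0.24 with the same count. Steap4, a metalloreductase, was read in 91.0% of members and 51.5% of other fibroblasts. Its level was 511 CPM in members, 423 CPM in the Apod set and 97.2 CPM in the progenitor set. The most negative were Efhd1 (-0.27), Pla1a (-0.25), the mitochondrial RNA mt-Rnr2 (-0.24) and Dpp4 (-0.23). Ceruloplasmin, Cp, a copper ferroxidase, stood at 939 CPM in members and 475 CPM in other fibroblasts. Cp was at 835 CPM in the Apod set and 300 CPM in the progenitor set, so neither Cp nor Steap4 set members far apart from the Apod set.

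Most genes of other cell types were low in members. The macrophage genes outside the rule summed to 347 CPM in members (289, 327 and 442), 768 CPM in other fibroblasts (335, 659 and 1814) and 24450 CPM in C1q cells, and 3 of the 5 that were measured were 2-fold lower in members. Lyz2, a macrophage lysozyme, had a read in 99.4% of members and 96.8% of other fibroblasts, at 158 CPM in members and 337 CPM in other fibroblasts. C1qa, a gene of the rule, and C1qc had reads in 56.4% and 66.0% of members, at 15.9 and 22.3 CPM, and in 50.9% and 57.4% of other fibroblasts, at 19.0 and 26.0 CPM. At least 3 of 10 macrophage genes were on in 24 members (7.48%) and 291 other fibroblasts (10.7%). Without these cells, 117 genes were 2-fold higher and 101 lower in members. No gene of the endothelial, lymphocyte and glial lists reached 20 CPM. Esm1, Ackr1 and Adgrf5, which endothelial cells also express, are outside those lists and were picked after their values were seen. Esm1 was at 39.3 CPM in members, with 40.5% of its reads in 1 cell, and 0.796 CPM in other fibroblasts. Ackr1 was at 9.25 CPM in members and 28.6 CPM in other fibroblasts, and Adgrf5 at 10.3 and 31.7 CPM. Of the mural genes, which mark contractile cells around vessels, Abcc9 was at 35.6 CPM in members and 5.06 CPM in other fibroblasts, while Rgs5 was at 2.74 and 23.0 CPM and within 2-fold with gaps filled. Of the mesothelial genes outside the rule, Upk1b, Krt18 and Krt8 were listed at 0 in members, and the lowest recorded value of each is 7 reads.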

How the data were processed

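Per the labels, single cells of 1 pool were barcoded on BD Rhapsody beads and amplified by TAS-Seq. The authors deposited a table of whole-number counts for each gene in each cell and a second one of hashtag counts. Bowtie2 2.4.2, cutadapt 2.10, R 3.6.3 and the build GRCm38 stand in the submitters' processing notes, without settings or roles. No collapse to molecules is recorded, so the counts were treated as reads, and intervals, which hold counting error alone, are too narrow. Of the 437 first-listed genes, 389 occur in over 100 cells, and all 389 have a lowest value of 5 reads or more, against 0 of 17701 later genes. A missing low value can enlarge a ratio. Filling the gaps treats all empty cells of both groups alike, so it shows 1 alternative and sets no bound.

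The 12040 columns include 11750 with 1 of 9 hashtags, and 290 others were not used. No cell number stood under 2 hashtags. Levels are summed reads as CPM. A call needed 2-fold on CPM + 1 and 20 CPM in members or other fibroblasts, and the 14 genes of the rule were left out. With 1 pooled sample there is no replicate and no test. The named genes follow the rule stated in the report. Members, markers and gene lists were chosen with earlier results of these data known. Shares have exact binomial intervals. Scrublet ran in scanpy 1.11.5 at an expected rate of 0.05, and marked cells were kept except in 1 alternative. Positions come from GENCODE M21, which matched 96.4% of symbols. The work used Python 3.11.15, numpy 2.4.6, scipy 1.17.1, pandas 2.3.3 and matplotlib 3.10.9. Results of 1 gene that the rules name are not reported here.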

Additional observations from a re-analysis of the deposited data

How the results depend on the processing

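The share of members among fibroblast cells, 10.5%, follows the limits of the rule. It was 12.8% with a gene on at 50 CPM, 6.42% at 200 CPM, 27.9% with at least 2 markers, 2.98% with at least 4 markers and 12.3% in cells with 20000 to 100000 reads. With at least 4 markers, 235 genes were 2-fold higher and 272 lower in place of 116 and 120. With a filter of 5 CPM the counts were 221 and 310, with 50 CPM 76 and 63, against cells with no marker on 209 and 220, and outside the progenitor set 73 and 70. The other alternatives, among them thinning, leaving out Scrublet-marked cells, filled gaps and the removal of cells with macrophage genes, which was chosen after seeing the data, kept both counts within 1.5 times. The log2 ratio of Gstm1 turned to 0.79 with a gene on at 50 CPM. Outside the progenitor set, the log2 ratio of Sbsn turned to 0.023, the log2 ratio of Ptgs1 to 0.17, the log2 ratio of Sema3c to 0.72 and the log2 ratio of Wnt11 to 0.11. Sema3c is among the genes that define that set, so its ratio there is conditioned on its own reads. For the other genes the cause was not tested. All 116 higher genes kept their direction in every alternative, and of the 120 lower genes 109 did outside the progenitor set, 116 without cells with macrophage genes, 118 without Scrublet-marked cells and at least 119 in the others. No paired analysis was possible because no result here comes from a test, the cells having been chosen on these reads. Depth limits genes near 20 CPM, where few cells hold reads.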
